A study of Homo sapiens with 52 samples.

Results

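MC1568 is a synthetic hydroxamic acid described as an inhibitor of class IIa histone deacetylases (HDACs), and its labelled target in the screen is HDAC4/5. Its effect on the transcriptome was followed in 2 samples of rhabdomyosarcoma cells bearing the PAX3-FOXO1 fusion (FP-RMS), treated for 6 h, one at 10 µM and one at 1 µM. They were set against the 4 screen controls, 2 at 0.2% DMSO (the solvent) and 2 at 0.1% DMSO, also at 6 h. These 6 samples belong to a screen of 44 samples with 20 compounds, among 52 samples in all. Of 27043 genes listed, 14564 reached a TPM of 1 in any 2 of the 6 libraries and were tested. TPM counts the transcripts of a gene, corrected for its length, on a total fixed for every sample. At each DMSO concentration 1 library came from flow cell C4JM1ACXX and 1 from H144EBGXX, which also carried both MC1568 samples and both LAQ824 samples. The sample titles say RH41 while the cell line label says RH4. Both names are those of established FP-RMS lines, so the response belongs to 1 line in culture. Nothing in the labels says that the 2 doses or the controls came from separately grown cultures. The p-values therefore measure the spread between samples and are not known to measure that between cultures. This spread was pooled over all 44 screen samples, with the 2 doses of each compound as its replicates.

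Class IIa HDACs, the products of HDAC4, HDAC5, HDAC7 and HDAC9, have little deacetylase activity of their own. They bind MEF2 factors on muscle genes and bring in the NCOR corepressor with HDAC3, and phosphorylation by CaM kinases and protein kinase D moves them out of the nucleus on YWHA adaptor proteins. In skeletal muscle they are known as brakes on MEF2-driven differentiation. FP-RMS cells are held in a myoblast-like state by core regulatory transcription factors (CR TFs) such as MYOD1, MYOG and SOX8.

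The depth behind these values was 21862177 reads at 10 µM, 24738886 at 1 µM and 16772069 to 22400978 in the DMSO libraries. The cells carried the muscle lineage: 7 of 8 muscle lineage markers passed the TPM filter, and their summed level was 3371 to 3440 TPM in DMSO and 2660 and 2812 TPM at 10 and 1 µM MC1568. Of 14 markers of other cell types, 5 reached 1 TPM in any of the 6 samples, and KRT19 and PTPRC were among those without reads. Their summed level was 7.13 to 8.56 TPM in DMSO and 13.1 and 13.4 TPM under MC1568. In bulk RNA, fewer cells of a type and less RNA per cell cannot be told apart. The 2 libraries of one DMSO concentration differed, once a difference shared by the flow cells was allowed for, by 0.995 times counting noise over 10378 genes. They were therefore averaged and counted as 1 sample in the test (n = 2 DMSO concentrations).

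Genes raised by MC1568 outnumbered genes lowered by far. Against the screen DMSO samples, 1118 of 14564 genes were called higher and 5 lower, which is 7.68% and 0.0343% of the genes tested. A call needed an adjusted p below 0.05 in limma and a change of at least 2-fold on the log2(TPM + 1) scale. Of the 1118, 876 had a DMSO mean of 1 TPM or more, as had all 5 genes called lower. Against the DMSO libraries of the same flow cell alone, 1124 genes were higher (7.72%) and 4 lower (0.0275%), and 1018 higher calls and 2 lower calls were shared with the first comparison. Both MC1568 values lay above all 4 DMSO values in 1117 of the 1118 genes, against 56.4% of all genes tested. Both lay below in 4 of the 5 genes called lower, against 18.5% of all genes tested. Without the fold threshold 3086 genes were higher (21.2%) and 484 lower (3.32%). Without the 10 µM sample 337 genes were higher and 3 lower, and without the 1 µM sample 1550 were higher and 12 lower. Against the same flow cell these counts were 357 and 1, and 1588 and 13. Over all genes tested the median difference was 0.26 on the log2 scale, and 71.2% of the differences were above 0.

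**Figure D1:**
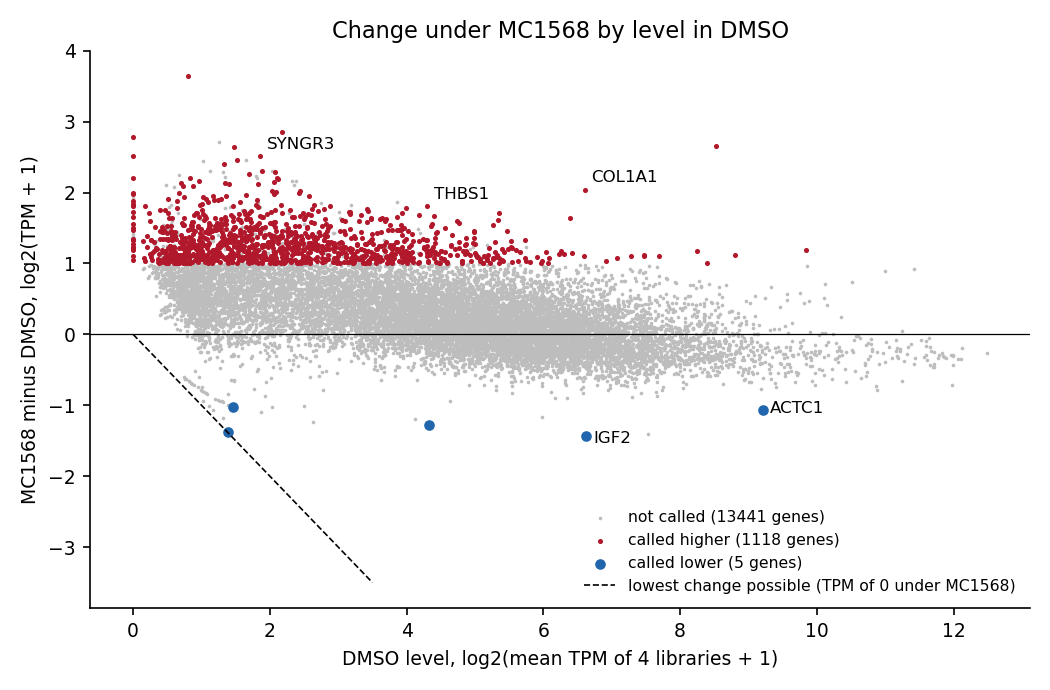
Each point is 1 of the 14564 genes tested, with its DMSO level as log2(mean TPM of 4 libraries + 1) on the x axis and the mean of both MC1568 doses minus DMSO in log2(TPM + 1) on the y axis. The 1118 red genes called higher crowd towards low DMSO levels, the 5 blue genes called lower lie at DMSO levels from 1 TPM upwards, and the dashed line marks the lowest change that the scale allows.

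The genes furthest above DMSO were mostly low in these cells and included several known from neurons. SYNGR3 encodes the synaptic vesicle protein synaptogyrin-3, and NPDC1 a protein of neural proliferation and differentiation. CEND1 promotes the exit of neuronal precursors from the cell cycle, and ENO2 encodes the neuronal enolase. NAT8L makes the neuronal metabolite N-acetylaspartate. Promoter windows of NPDC1 and ENO2 are shown because these genes were among the 12 furthest above DMSO, and that of ACTC1 because it was the one abundant gene called lower in both comparisons. Each window holds the 250 bases before the RefSeq start in build GRCh38.p14, written 5′ to 3′ on the strand of the gene. They lie at chr9:137046178-137046427 (minus strand), chr12:6914330-6914579 (plus strand) and chr15:34795550-34795799 (minus strand). Capitals mark the GC box (GGGCGG, either strand), the CArG box bound by serum response factor and the TATA box (TATAAA, either strand).
NPDC1: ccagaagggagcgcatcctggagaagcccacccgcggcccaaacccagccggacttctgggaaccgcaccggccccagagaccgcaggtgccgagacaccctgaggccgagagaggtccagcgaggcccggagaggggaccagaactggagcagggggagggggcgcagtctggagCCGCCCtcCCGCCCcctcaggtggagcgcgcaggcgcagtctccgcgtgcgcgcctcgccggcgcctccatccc
ENO2: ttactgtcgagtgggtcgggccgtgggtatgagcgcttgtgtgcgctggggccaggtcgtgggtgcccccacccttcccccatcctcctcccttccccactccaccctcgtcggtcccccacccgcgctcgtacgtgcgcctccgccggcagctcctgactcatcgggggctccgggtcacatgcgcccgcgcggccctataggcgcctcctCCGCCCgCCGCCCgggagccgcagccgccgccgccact
ACTC1: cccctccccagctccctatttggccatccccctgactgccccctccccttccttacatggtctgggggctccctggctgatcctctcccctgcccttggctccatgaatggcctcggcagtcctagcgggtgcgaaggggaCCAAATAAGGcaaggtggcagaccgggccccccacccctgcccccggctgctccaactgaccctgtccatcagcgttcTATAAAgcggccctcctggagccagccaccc
NPDC1 and ENO2 each held 2 GC boxes, without CArG or TATA box, in windows with 73.6% and 74.0% G and C bases. ACTC1 held 1 CArG box and 1 TATA box and no GC box, with 66.0% G and C bases. The MEF2 core (CTA and TAG with any 4 bases between, either strand) was in none of these 3 windows. Of the 27305 promoters in the RefSeq table, 42.3% held the GC box, 2.42% the MEF2 core, 1.14% the CArG box and 11.1% the TATA box. Only 62.4% of the 1118 genes called higher matched a promoter by symbol, too few for a comparison of the genes called with the rest.

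SYNGR3 (hg19 chromosome 16, 2039946 to 2044276) was at 29.9 TPM at 10 µM and 12.7 TPM at 1 µM. Its DMSO libraries were at 2.56, 2.16, 2.90 and 2.87 TPM. Both MC1568 samples stood clear of DMSO, and the 10 µM sample stood clear of the 1 µM sample. The log2 fold change was 2.51 ± 0.31 (SE, limma adjusted p = 8.99e-06). NPDC1 (chromosome 9, 139933909 to 139940676) rose more steeply with dose. It reached 30.3 TPM at 10 µM and 6.88 TPM at 1 µM, against 1.69 to 2.17 TPM in DMSO, with a log2 fold change of 2.45 ± 0.45 (SE, limma adjusted p = 0.000412). ENO2 (chromosome 12, 7023614 to 7032859) was at 23.4 and 12.7 TPM, against 2.51 to 3.62 TPM in DMSO. Its log2 fold change was 2.14 ± 0.35 (SE, limma adjusted p = 0.000136). CEND1 (chromosome 11, 787110 to 790126) was at 25.6 and 13.5 TPM, against 2.5 to 4.07 TPM in DMSO. NAT8L was at 29.95 and 14.7 TPM, with DMSO between 4.23 and 4.63 TPM.

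COL1A1, the collagen chain that makes up most of bone and connective tissue matrix (chromosome 17, 48261457 to 48279000), had the smallest adjusted p of these 12 genes. It was at 436 TPM at 10 µM and 366 TPM at 1 µM. The DMSO libraries were at 89.7, 97.9, 96.1 and 102 TPM. The groups did not overlap, and the doses lay close to each other, with a log2 fold change of 2.04 ± 0.19 (SE, limma adjusted p = 7.71e-07). PRRT3 was at 28.2 and 13.4 TPM with DMSO between 3.03 and 3.30 TPM, and FAM131B at 21.8 and 9.58 TPM with DMSO between 2.12 and 2.5 TPM. VWA5B2, PIP5KL1 and the uncharacterised transcripts LOC101928307 and LOC101929125 complete the 12. LOC101928307 rested on few reads, between 4 and 7 in the DMSO libraries and 56 and 47 at 10 and 1 µM. Over the 12 genes the 10 µM value was always above the 1 µM value. Both were above every DMSO library, which was a condition of the choice of these genes. Without the 10 µM sample NPDC1, CEND1 and VWA5B2 were no longer called.

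**Figure D2:**
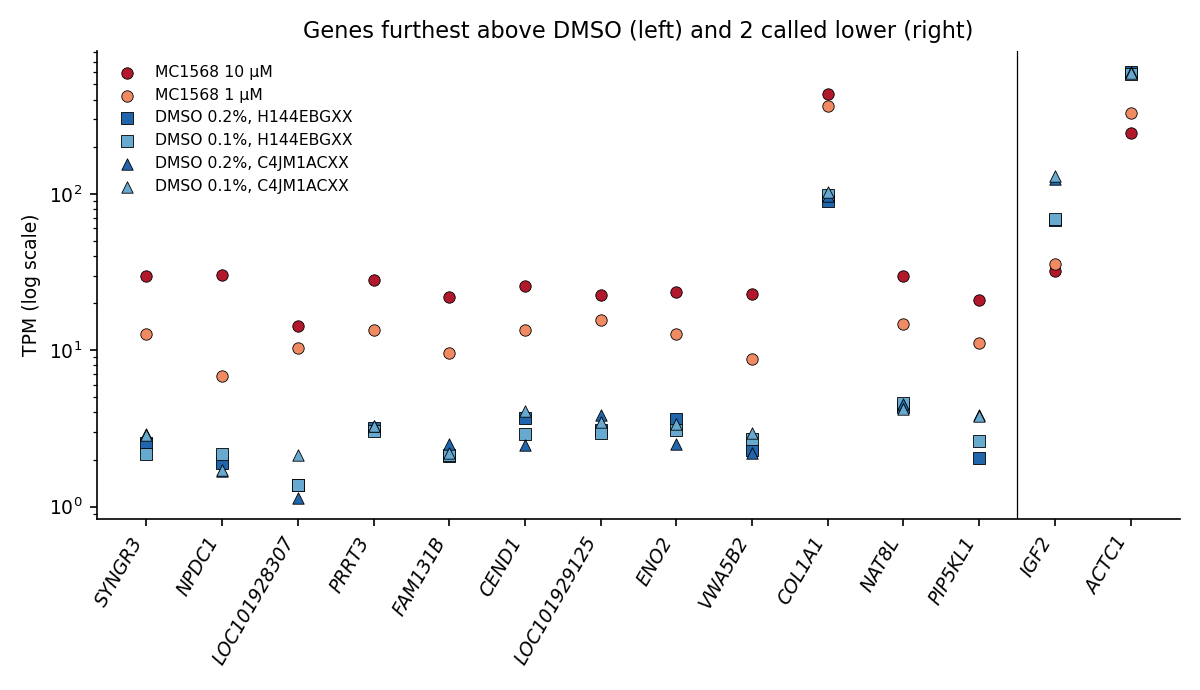
TPM on a log axis for the 12 genes furthest above DMSO (left of the line) and 2 called lower (right), one point a sample: circles MC1568, squares DMSO of H144EBGXX, triangles DMSO of C4JM1ACXX. Red circles lie above the blue symbols in all 12 genes, which was a condition of their choice, and for IGF2 the DMSO squares and triangles lie apart.

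Genes called lower were few, and only ACTC1 among them was both well covered and steady across controls. ACTC1 encodes cardiac alpha-actin, the actin of embryonic muscle (chromosome 15, 35080297 to 35087927). It was at 243 TPM at 10 µM and 330 TPM at 1 µM. The DMSO libraries were at 599.7, 585, 596 and 589 TPM. The DMSO values lay together, the MC1568 values well below them. The log2 fold change was -1.06 ± 0.28 (SE, limma adjusted p = 0.00821), and -1.06 against the same flow cell as well. It rested on 6636 to 18159 reads. Without the 10 µM sample it was -0.84 and no longer called.

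IGF2, the fetal growth factor expressed strongly in rhabdomyosarcoma (chromosome 11, 2150342 to 2170833), was at 32.2 and 35.7 TPM under MC1568. The DMSO libraries of H144EBGXX were at 67.8 and 69.1 TPM, those of C4JM1ACXX at 124 and 130 TPM. Both MC1568 values were below all controls, but the controls differed between flow cells. Against screen DMSO the log2 fold change was -1.43 ± 0.21 (SE, limma adjusted p = 6.19e-05). Against the same flow cell it was -0.99, just short of a 2-fold change. The microRNA rows MIR130A and MIR152, also called lower, had at most 3 and 1 reads in any library. Against the same flow cell the genes called lower were ACTC1, MIR152, MIR708 and SNORD137, the last 3 on at most 1 read.

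From 1 TPM upwards, genes rose the more the lower they stood in DMSO. Among 1109 genes with a DMSO mean under 1 TPM, the median difference was 0.77 on the log2 scale, and 242 genes were called higher (21.8%) and 0 lower in limma. A gene under 1 TPM could not fall by 1 on this scale, so no lower call was possible there. With no fold threshold 443 were higher and 1 lower. Most of these 1109 genes passed the TPM filter through the MC1568 samples, so their rise was fixed by the filter and supports nothing. From 1 to 5 TPM (2578 genes) the median was 0.64, with 469 genes higher and 2 lower. From 5 to 20 TPM (3300 genes) it was 0.40, with 292 higher and 1 lower. From 20 to 100 TPM (5500 genes) it was 0.10, with 104 higher and 1 lower. At 100 TPM and over (2077 genes) it was -0.14, with 11 genes higher and 1 lower. Without the fold threshold the order turned at that level, with 175 genes higher and 338 lower.

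The trend from 1 TPM upwards was also seen with no TPM filter and with separate libraries for the level and the difference. For every gene listed, the level was then taken from the C4JM1ACXX DMSO libraries and the difference from the H144EBGXX DMSO libraries. The medians were 0.64 from 1 to 5 TPM (2615 genes), 0.38 from 5 to 20 TPM, 0.09 from 20 to 100 TPM and -0.14 at 100 TPM and over. From 0.1 to 1 TPM (3281 genes) the median was 0.36, below that of the next level, on a scale that understates the change of low genes. Over these 5 levels the median difference between the 2 DMSO libraries of H144EBGXX lay between -0.0061 and 0.011. A total of 953 genes passed the TPM filter only through the MC1568 samples and therefore had to be higher there, and 222 of them were among the 1118 called. With the filter set on the DMSO libraries alone, 13611 genes were tested, 887 were called higher and 5 lower.

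**Figure D3:**
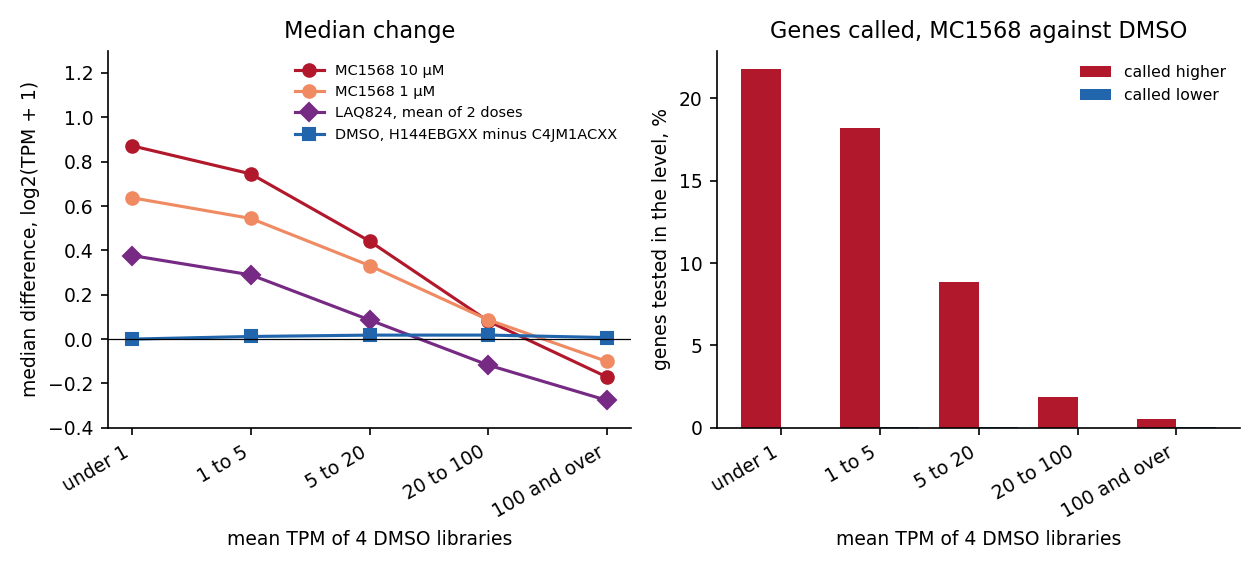
Left, the median difference in log2(TPM + 1) by mean TPM of the 4 DMSO libraries, for MC1568 at 10 µM and 1 µM and LAQ824 against DMSO of H144EBGXX, and for DMSO of H144EBGXX against C4JM1ACXX. Right, the percent of genes in each level called higher (red) or lower (blue, too few to see) under MC1568 against screen DMSO. The MC1568 medians fall from 0.74 and 0.54 at 1 to 5 TPM to -0.17 and -0.10, while the DMSO line stays near 0; under 1 TPM most genes were tested only through the MC1568 samples.

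The same picture held in shares of the whole library. TPM values of a sample add up to a fixed total, so a larger share for some genes leaves a smaller one for others. Genes with a DMSO mean of 100 TPM or more took 62.7% of the total at 10 µM and 64.3% at 1 µM, against 68.7% to 69.1% in the DMSO libraries. Genes from 1 to 5 TPM took 1.42% and 1.13%, against 0.645% to 0.656%. The 1118 genes called higher went from 1.10% to 1.22% in DMSO to 3.31% at 10 µM and 2.60% at 1 µM. They were chosen for being higher in these same MC1568 libraries, so their share had to rise. The number of genes with at least 1 TPM was 14997 at 10 µM and 14529 at 1 µM, against 13443 to 13482 in DMSO. In the other 42 screen samples it ranged from 13127 to 14255. Of 7312 genes without a read in any DMSO library, 882 had reads at 10 µM and 710 at 1 µM, and 1128 and 1192 had reads in the deeper LAQ824 libraries. Genes chosen for having no reads in DMSO can only be higher elsewhere, so each DMSO library was also left out of the choice in turn. The library left out then had reads in 327 to 453 of these genes, against 1043 to 1120 at 10 µM and 849 to 902 at 1 µM. Olfactory receptor genes, a family that muscle cells keep silent, took 6.82 and 7.03 RPM (reads scaled to library depth) under MC1568 and 4.73 to 7.27 in DMSO. The MC1568 values thus lay above both DMSO libraries of the same flow cell (4.73 and 5.28 RPM) and below the highest C4JM1ACXX library.

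By gene type, 850 of 11915 protein-coding genes were called higher (7.13%) and 3 lower. Among 653 long non-coding RNA genes 90 were higher (13.8%) and 0 lower in limma, or 170 and 1 with no fold threshold. These genes were also lower in DMSO, with a median of 2.75 TPM against 28.4 TPM for protein-coding genes. Rows named for microRNAs, which in poly-A libraries measure reads over the precursor and not the mature RNA, had 36 of 366 higher and 2 lower, and rows named for small nucleolar RNAs had 9 of 230 higher. Of 484 ZNF genes, 18 were higher (3.72%). The 78 ribosomal protein genes went the other way: their median DMSO level was 1690 TPM and their median difference -0.31. With no fold threshold 47 of them were lower and 1 higher at an adjusted p below 0.05. Over all levels together gene length differed little, with a median exon length of 2981 bases among genes called higher and 2904 bases among all tested. Among genes with a DMSO mean under 5 TPM, those called higher were longer, with a median of 2817 bases against 2240 bases for all tested. Their median number of exons was 9, against 6. The share of genes called higher ran from 3.44% on chromosome X to 9.91% on chromosome 9.

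Of the rows with a DMSO mean of 100 TPM or more, 11 were called higher, and 6 of these were protein-coding genes. ITGA7, the laminin-binding integrin of muscle, was at 430 and 341 TPM, with DMSO between 171 and 181 TPM. COL6A2, a chain of the microfibrillar collagen around muscle fibres, was at 499 and 390 TPM, with DMSO between 199.8 and 216 TPM. COL5A1, a chain of the fibril-starting collagen, was at 729.5 and 624 TPM, with DMSO between 329 and 344 TPM. PLAT, the tissue plasminogen activator, was at 389 and 284 TPM, with DMSO between 139 and 172 TPM. CDK5RAP3 and MICAL1 had log2 fold changes of 1.11 and 1.03. In these 6 genes both doses were above all controls, as in 1117 of all 1118 genes called higher and 56.4% of all genes tested. The other 5 were the microRNA rows MIR6723, MIR5047, MIR3654 and MIR3064 and the small nucleolar RNA row SNORD31. MIR6723 ranged from 91.7 to 659 TPM among the DMSO libraries, and MIR3654 from 108 to 499 TPM, so controls of the 2 flow cells were unlike each other there. MIR3654 was not called against the same flow cell, with a log2 fold change of 0.21.

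The HDAC genes themselves were not called. Among class IIa genes HDAC9 was at 1.74 and 1.37 TPM with DMSO between 0.384 and 0.525 TPM (log2 fold change 0.82 ± 0.31, SE, limma adjusted p = 0.0567). HDAC5 was at 153 and 169 TPM with DMSO between 129 and 145 TPM, HDAC4 at 11.9 and 10.3 TPM with DMSO between 9.19 and 9.32 TPM, and HDAC7 at 116 and 129 TPM with DMSO between 123 and 133 TPM. None of these 4 passed an adjusted p of 0.05 against screen DMSO. Against the same flow cell HDAC9 passed, with a log2 fold change of 0.84 (limma adjusted p = 0.0455), under 2-fold. HDAC9 was under 1 TPM in every DMSO library, so it was tested only through the MC1568 samples and had to be higher there. Of the other 7 zinc-dependent HDACs, 3 passed an adjusted p of 0.05 against screen DMSO without reaching 2-fold. All 3 were higher, and with no fold threshold 21.2% of all genes tested were higher and 3.32% lower. HDAC1, a class I enzyme, was at 306 and 297 TPM, with DMSO between 217 and 234 TPM (limma adjusted p = 0.000407). HDAC6, the tubulin deacetylase, was at 47.6 and 44.5 TPM, with DMSO between 29.6 and 32.2 TPM (limma adjusted p = 0.00614). HDAC10 was at 38.3 and 32.9 TPM, with DMSO between 22.9 and 25.1 TPM (limma adjusted p = 0.0325).

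Of 19 measured partners of class IIa HDACs, 1 was called higher and 0 lower in limma, and their median difference was 0.02, against 0.26 over all genes tested. With no fold threshold 2 were higher and 2 lower. Among all genes tested 7.68% were called higher and 0.0343% lower, or 21.2% and 3.32% with no fold threshold. The gene called was CAMK2G, a CaM kinase, at 105 and 70.8 TPM with DMSO between 37.5 and 40.8 TPM (log2 fold change 1.13 ± 0.16, SE, limma adjusted p = 2.81e-05). CAMK4, another CaM kinase, was at a log2 fold change of 1.00 (limma adjusted p = 0.000209), just under the threshold, and was called higher against the same flow cell, where 2 partners were called. The adaptor genes YWHAE and YWHAZ were lower by less than 2-fold, with log2 fold changes of -0.53 and -0.42 (limma adjusted p = 0.0244 and 0.0227).

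The 6 CR TF genes all lay below DMSO at 10 µM, and 1 passed an adjusted p of 0.05 in the fit over all screen samples. Among all genes tested, 3.32% were lower at that adjusted p. SOX8 was at 435 TPM at 10 µM and 511 TPM at 1 µM. Its DMSO libraries were at 701.5, 707, 664 and 680.4 TPM, all above both MC1568 values. The log2 fold change was -0.54 ± 0.17 (SE, limma adjusted p = 0.0201), and without the 10 µM sample it was -0.43 (limma adjusted p = 0.245). MYOD1, the factor that sets muscle identity, was at 399 and 438 TPM, against 641, 648, 647 and 639.7 TPM in DMSO. MYOG, the factor of terminal muscle differentiation, was at 297 and 384 TPM, against 572 to 587 TPM. Both MC1568 values of MYOD1 and MYOG were below all controls, as they were in 18.5% of all genes tested. Their log2 fold changes were -0.62 ± 0.36 and -0.77 ± 0.45 (SE, limma adjusted p = 0.212 and 0.221), with an error that the fit pools over all screen compounds. Fitted on the MC1568 and DMSO samples alone, MYOD1, MYOG, FOXF1 and PAX3 passed as well (limma adjusted p = 0.00646, 0.00988, 0.00658 and 0.0197), and MYCN did not (0.364). That fit had only 2 residual degrees of freedom, and low p-values were common in it. Of all 14564 genes, 1905 were lower and 6842 higher at an unadjusted limma p below 0.05. In the fit over all screen samples these counts were 856 and 4500. FOXF1 was at 63.4 and 69.9 TPM with DMSO between 104 and 115 TPM, and PAX3 at 31.2 and 32.3 TPM with DMSO between 38.6 and 43.9 TPM. For PAX3 the reads of the normal gene and of the fusion are not told apart here. MYCN, at 47.4 and 54.99 TPM, overlapped its DMSO range of 53.3 to 57.5 TPM. The median over the 6 genes was -0.58, against 0.26 over all genes tested. Their median DMSO level was 344 TPM, and all genes tested at 100 TPM and over had a median of -0.14.

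Other muscle genes moved both ways. Of 25 muscle structure genes tested, ACTN2 was called higher and ACTC1 lower, and the list median was -0.06. Among all genes tested 7.68% were called higher and 0.0343% lower, and the median was 0.26. ACTN2, the alpha-actinin of the Z-disc, was at 4.92 and 3.28 TPM with DMSO between 0.983 and 1.5 TPM (log2 fold change 1.13 ± 0.30, SE, limma adjusted p = 0.0071). Of 13 other myogenic factors none was called in limma. Of 16 genes associated with the fusion protein, PODXL2, a sialomucin of the cell surface, was called higher, at 38.4 and 27.6 TPM with DMSO between 10.1 and 13.1 TPM. With no fold threshold 6 of the 16 were higher, among them CNR1 at 0.89 and FGFR4 at 0.47 on the log2 scale, and ASS1 was lower at -0.30. The shares of all genes tested were then 21.2% higher and 3.32% lower.

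**Figure D4:**
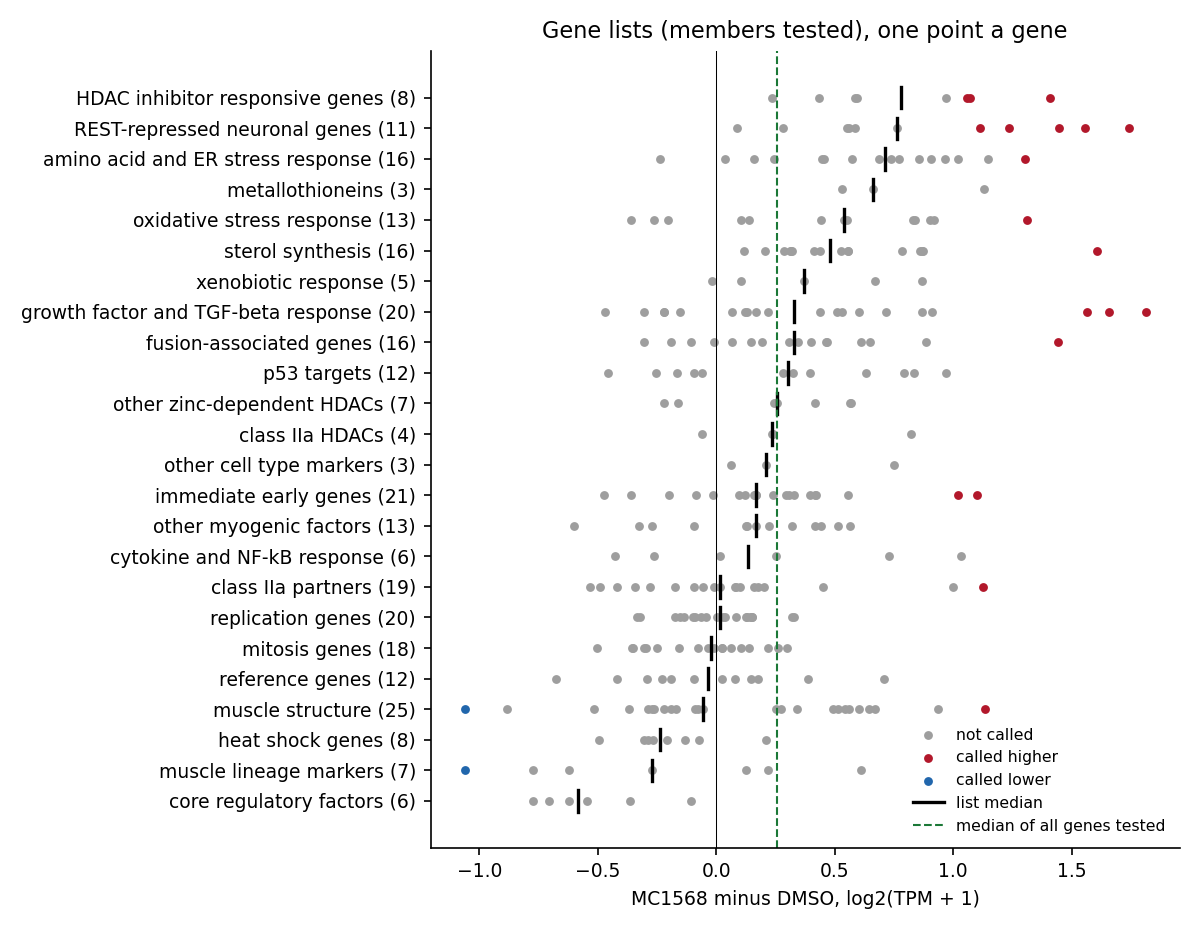
Difference between MC1568 and screen DMSO in log2(TPM + 1), one point a gene, for 24 gene lists with the number of members tested in brackets. Black bars are list medians, from -0.58 for the core regulatory factors to 0.78 for HDAC inhibitor responsive genes, and the dashed line is the median of all genes tested at 0.26.

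Neuronal genes under the repressor REST, whose complex includes class I HDACs, were called only higher, as were 99.6% of all genes called. Of 32 listed, 11 passed the TPM filter, of which 5 were called higher and 0 lower in limma, or 6 and 0 with no fold threshold. Their median was 0.76. Over all genes tested 7.68% were called higher and 0.0343% lower, or 21.2% and 3.32% with no fold threshold. All 11 passed the TPM filter on the DMSO libraries alone, but which of the 32 could be tested still depended on level. SCN3A, a neuronal sodium channel, was at 11.8 and 7.28 TPM with DMSO at 2.14, 2.32, 1.90 and 1.99 TPM. The doses and the controls were well apart, with a log2 fold change of 1.74 ± 0.21 (SE, limma adjusted p = 9.88e-06). SCG2, a secretory granule protein, was at 6.89 and 5.65 TPM with DMSO between 1.23 and 1.89 TPM. HCN3, a pacemaker channel, was at 15.5 and 11 TPM with DMSO between 3.84 and 4.51 TPM. STMN3, a tubulin-binding protein, was at 92.6 and 65.4 TPM with DMSO between 32.7 and 38.9 TPM, and CELSR3, a neuronal cadherin, was the fifth gene called.

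Of 10 genes listed as commonly raised by HDAC inhibitors, 8 were tested, and 3 were called higher and 0 lower in limma, against 7.68% and 0.0343% of all genes tested. With no fold threshold the counts were also 3 and 0, against 21.2% and 3.32% of all genes. The list median was 0.78, against 0.26 for all genes. SYT11, a vesicle trafficking protein, was at 57.7 and 33.4 TPM, against 15.8 to 16.1 TPM in DMSO. GSN, the actin-severing gelsolin, was at 92.97 and 66.8 TPM, against 35.3 to 39.4 TPM. CLU, the secreted chaperone clusterin, was at 5.74 and 2.45 TPM, against 1.10 to 1.52 TPM. The 10 µM value was the higher of the doses in all 3 genes, and without that sample none of the 3 passed (for CLU, the log2 fold change was then 0.59).

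The matrix genes THBS1 and CTGF rose. Of 20 genes of the growth factor and TGF-beta list, 3 were called higher and 0 lower in limma (7.68% and 0.0343% of all genes), or 6 and 0 with no fold threshold (21.2% and 3.32% of all genes), and the median was 0.33, against 0.26 for all genes. THBS1, the matrix glycoprotein thrombospondin-1 (chromosome 15, 39873280 to 39891121), was at 69.9 TPM at 10 µM and 65.7 TPM at 1 µM. Its DMSO libraries were at 17.8, 18.9, 17.1 and 20.8 TPM. The groups stood far apart and the doses were alike in level, with a log2 fold change of 1.81 ± 0.36 (SE, limma adjusted p = 0.000902). CTGF, a matrix protein of the CCN family, was at 73.4 and 49.3 TPM, against 17.8 to 22.4 TPM. Without the 10 µM sample CTGF was no longer called.

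The lists for amino acid and ER stress, oxidative stress and sterol synthesis had 1 gene called each, against 7.68% of all genes tested. Of 16 amino acid and ER stress genes, ASNS was called, and 6 were higher and 0 lower with no fold threshold, with a median of 0.71. Among all genes tested 21.2% were higher and 3.32% lower with no fold threshold, and the median was 0.26. ASNS, the asparagine synthetase, was at 108 and 83.7 TPM with DMSO between 36.5 and 39.4 TPM (log2 fold change 1.3 ± 0.43, SE, limma adjusted p = 0.029). The ER chaperone gene HSPA5 was at 0.96 and its co-chaperone HYOU1 at 0.69 on the log2 scale. SLC7A11, the cystine transporter, was the one gene called among 13 of oxidative stress, at 10.9 and 7.30 TPM with DMSO between 2.86 and 3.17 TPM. STARD4, a sterol carrier, was the one gene called among 16 of sterol synthesis, at 97.3 and 65.9 TPM with DMSO between 22.6 and 27.5 TPM. Without the 10 µM sample none of ASNS, SLC7A11 and STARD4 was called. Among 21 immediate early genes 2 were called higher, against 7.68% of all genes tested, on 12 or more reads a library. They were DUSP2, a phosphatase of MAP kinases, and NR4A2, an orphan nuclear receptor. NR4A2 was at 0.555 to 1.29 TPM in DMSO and passed the TPM filter only through the MC1568 samples, which favours a higher call. Of the 19 genes that passed on the DMSO libraries alone, 1 was called.

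No member was called in limma among 8 heat shock genes, 12 p53 targets, 3 metallothionein genes, 5 xenobiotic response genes, 6 cytokine genes, 18 mitosis genes, 20 replication genes and 12 reference genes. Among all genes tested 7.68% were called higher and 0.0343% lower, and at 100 TPM and over 0.53% were called higher. The heat shock, mitosis, replication and reference lists had median DMSO levels of 593, 153, 178 and 404 TPM. The absence of calls in these short or abundant lists therefore says little about them. At an adjusted p below 0.05 with no fold threshold, 1 p53 target was higher, and 1 reference gene was higher and 2 lower. The shares of all genes tested were 21.2% higher and 3.32% lower. The p53 target was FAS, the death receptor, at 1.31 and 1.11 TPM with DMSO between 0.217 and 0.406 TPM. FAS was under 1 TPM in every DMSO library, so it was tested only through the MC1568 samples and had to be higher there. The medians of the mitosis and replication lists were -0.02 and 0.02. Among reference genes GUSB was at 109 and 96.8 TPM with DMSO between 60.7 and 66.8 TPM. PPIA was at 828 and 886 TPM, with DMSO of H144EBGXX at 1249 and 1226 TPM and of C4JM1ACXX at 1520 and 1515 TPM.

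The doses were then compared, each with the DMSO library of its title level on H144EBGXX and with no test, since each dose had 1 sample. At 10 µM 2068 genes were at least 2-fold higher (14.2%) and 77 lower (0.529%). At 1 µM 945 were higher (6.49%) and 47 lower (0.323%). At both doses 671 genes were 2-fold higher and 7 lower. Of the 1118 genes called higher, 996 (89.1%) had the larger change at 10 µM, against 55.1% of all genes tested, and their median change was 1.45 at 10 µM and 1.02 at 1 µM. The call averages the doses, so this share partly follows from it. NPDC1 changed by 3.42 at 10 µM and 1.31 at 1 µM, SYNGR3 by 3.12 and 2.12, whereas COL1A1 changed by 2.27 and 1.89 and THBS1 by 1.92 and 1.74. ACTC1 fell by 1.3 on the log2 scale at 10 µM and by 0.82 at 1 µM.

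**Figure D5:**
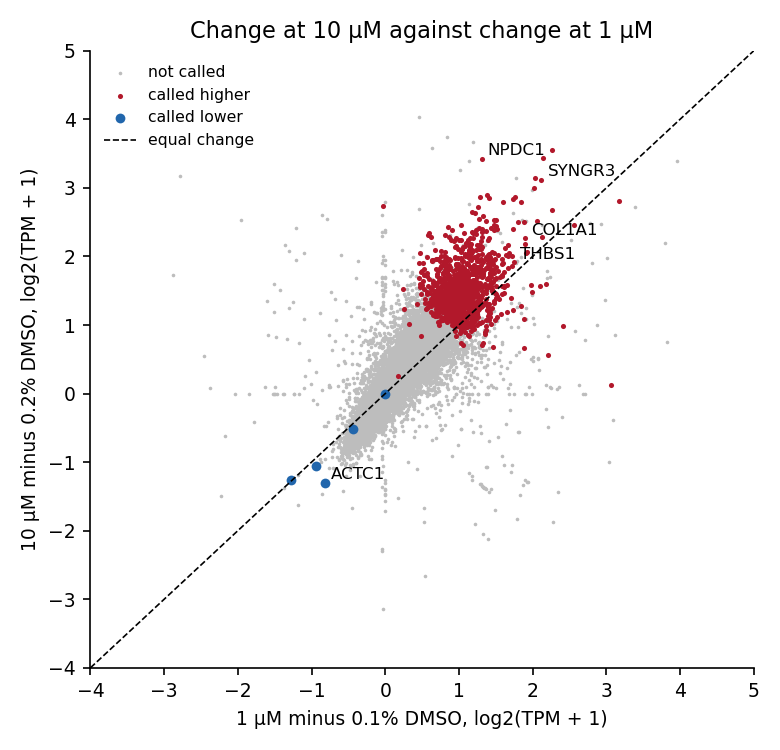
Change at 10 µM against 0.2% DMSO (y axis) and at 1 µM against 0.1% DMSO (x axis) in log2(TPM + 1), DMSO of flow cell H144EBGXX, one point a gene. Most red genes, called higher on the mean of the doses, lie above the line of equal change; COL1A1 (2.27 and 1.89) and THBS1 (1.92 and 1.74) lie near it, and NPDC1 (3.42 and 1.31) far above it.

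LAQ824, a hydroxamic acid that inhibits most zinc-dependent HDACs, was sequenced on the same flow cell at 5 and 0.5 µM, doses that differ from those of MC1568. The comparisons of both compounds share the DMSO samples. LAQ824 had 1877 genes higher and 1904 lower against screen DMSO, so 49.6% of its calls were higher, against 99.6% for MC1568. Mostly higher calls were not particular to MC1568. On other flow cells, GSKLSD1 had 142 genes higher and 4 lower, Cpd50 295 and 19, LSD519 38 and 3, and LSD690 70 and 8. Mostly lower calls were seen for Bromosporin (550 higher and 1480 lower), UNC0638 (116 and 427) and SGCCBP30 (8 and 209). The genes tested were chosen on the MC1568 and DMSO samples, and 953 passed only through MC1568, which favours higher calls for MC1568 and not for LAQ824. With the filter on DMSO alone, 99.4% of the MC1568 calls were higher. Against the H144EBGXX DMSO libraries, the median differences of LAQ824 over both doses were 0.29 from 1 to 5 TPM, 0.09 from 5 to 20 TPM, -0.12 from 20 to 100 TPM and -0.28 at 100 TPM and over. For MC1568 over both doses the same 4 medians were 0.64, 0.38, 0.09 and -0.14. Over all 2583 genes listed with a DMSO mean of 1 to 5 TPM, with no filter, the median difference from screen DMSO was 0.64 for MC1568 and 0.30 for LAQ824, and ranged from -0.22 to 0.23 for the other 18 compounds. SYNGR3 was at 11.6 and 12.3 TPM under LAQ824, COL1A1 at 248 and 249 TPM, and ACTC1 at 74.3 and 84.0 TPM. SCN3A was at 1.37 TPM at both LAQ824 doses, SLC7A11 at 0.614 and 0.647 TPM and ASNS at 38.5 and 39.8 TPM, while MC1568 had these 3 genes above all DMSO libraries. MYOD1 was at 71.1 and 75.1 TPM under LAQ824.

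A further 3 HDAC inhibitors shared the doses of 10 and 1 µM and the time of 6 h with MC1568: Merck60 (labelled HDAC1/2), OJI-1 (labelled HDAC8) and WT161 (labelled HDAC6). All 3 were sequenced on flow cell C5JW5ACXX, which held no DMSO sample, so compound and flow cell cannot be told apart. The genes tested could pass the TPM filter through MC1568 but not through these 3 compounds, which favours higher counts for MC1568. MC1568 had 771 genes higher than Merck60 (5.29%) and 12 lower (0.0824%). It had 1993 higher than OJI-1 (13.7%) and 14 lower (0.0961%), and 2203 higher than WT161 (15.1%) and 331 lower (2.27%). Without the 10 µM sample of MC1568 the higher counts against Merck60 and OJI-1 were 167 and 1037, and without its 1 µM sample they were 1198 and 2446. Recovered read numbers of the 10 µM Merck60 library were mostly even, and without it 528 genes were higher and 6 lower. SYNGR3 was at 3.39 and 3.20 TPM under Merck60, 1.90 and 1.79 TPM under OJI-1, and 13.3 and 9.29 TPM under WT161, at 10 and 1 µM in turn. MC1568 exceeded Merck60 in SYNGR3 by 2.26 and OJI-1 by 2.86 on the log2 scale (limma adjusted p = 2.52e-05 and 3.52e-07), and WT161 by 0.76 (95% interval 0.13 to 1.39, limma adjusted p = 0.0445), under 2-fold. COL1A1 lay between 65.4 and 125 TPM in the 6 samples of these compounds, and MC1568 exceeded each of them (log2 differences of 1.87, 2.35 and 1.82, limma adjusted p = 7.62e-07, 1.59e-08 and 9.37e-08). ACTC1 was at 780 and 587 TPM under Merck60, 540.2 and 539 TPM under OJI-1 and 176.5 and 351 TPM under WT161. MC1568 was lower in ACTC1 than Merck60 by 1.25 (-1.25, limma adjusted p = 0.00295), while the difference from WT161 was 0.19 (95% interval -0.40 to 0.77, limma adjusted p = 0.622). These p-values were adjusted over all genes tested within each of the 3 pairs of compounds.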

How the data were processed

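Poly-A RNA of the treated cells was sequenced as paired-end libraries. According to the study's methods the authors used STAR against hg19 and RSEM for expression, and they deposited TPM values, 1 table a sample, not pooled over replicates. The submitters' notes also name edgeR. TPM is normalised for gene length and to a fixed total, so it keeps shares and not amounts of RNA. Because the values were whole multiples of a step, whole reads were recovered for 23037 of 23037 genes above 0 (within 0.001 of a whole number). RSEM assigns parts of reads, so these values may come from another counter than the methods name. The screen libraries held 5737938 to 41415071 reads.

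Genes that reached 1 TPM in any 2 of the 6 libraries were tested on log2(TPM + 1) with limma 3.58.1 in R 4.3.3 (mean-variance trend, two-sided, Benjamini-Hochberg adjustment), with all 44 screen samples in the fit and both doses of a compound as its replicates. Limma's voom on the recovered reads was an alternative. DMSO libraries of one concentration were averaged, or split by flow cell. Calls needed an adjusted p under 0.05 together with a 2-fold difference. The fits were tested on simulated data. Differences understate the change of low genes.

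The members and the gene lists were chosen with earlier results of these data known, so list counts are descriptions. Genes named in the text are the 12 highest and up to 8 lowest called genes with a mean TPM of at least 5, outside the DMSO range and not MIR or SNOR rows (3 genes met this for lower), the CR TF and HDAC genes, and up to 4 called genes a list and direction or, where none was called, 2 with the smallest p, of which some are given only as counts. Values of a few genes under this rule and of a marker are not reported here. The rows called lower, those called higher at 100 TPM or more, and other list members with an adjusted p below 0.05 were named after their values were seen. Gene types came from GENCODE on GRCh37 for 13118 genes, promoters from RefSeq on GRCh38.p14. The 8 samples of the other experiments were not analysed here. Python 3.11.15, numpy 2.4.6 and pandas 2.3.3 were used.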

Additional observations from a re-analysis of the deposited data

How the results depend on the processing

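The excess of genes called higher kept its direction in every alternative run, with and without the fold threshold. Against screen DMSO (1118 higher, 5 lower), a mean TPM of at least 5 gave 575 and 3, fewer genes being tested. Fitting only the samples compared gave 11 lower, with 5 in place of 1 of the 6 CR TF genes at an adjusted p below 0.05, and voom on whole reads 15 lower. In the fit of only the samples compared, 1905 of all genes were lower at an unadjusted limma p below 0.05, against 856 in the main fit. No fold threshold gave 3086 and 484 (86.4% higher). Leaving out 1 library in turn gave 337 to 1550 higher and 3 to 12 lower. Against the same flow cell (1124 and 4), the same 4 alternatives gave 565 and 1, 9 lower, 10 lower, and 3179 and 542 (85.4% higher), and leaving out 1 library gave 357 to 1588 and 1 to 13. The lowest counts came without the 10 µM sample. The numbers of the DMSO replicates mark flow cells. With that number as a replicate block the counts were 1124 higher and 4 lower, IGF2 (-0.99) was then no longer called, and the DMSO libraries of one number deviated together with a correlation of 0.0869, which this layout gives to both numbers alike. A paired fit by title level within the flow cell gave 1333 and 12.

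Against Merck60, OJI-1 and WT161 no fold threshold gave 2453 and 480 (83.6% higher), 4965 and 807 (86.0%), and 4692 and 1921 (71.0%). Leaving out 1 library gave 167 to 1198 higher and 4 to 20 lower against Merck60, and 1037 to 2446 and 5 to 51 against OJI-1. Scaling by median ratios gave 42 lower against OJI-1. The median under 1 TPM was 1.39 with a pseudocount of 0.1, 0.55 over the 170 genes left by the filter on DMSO alone, and 0.36 from 0.1 to 1 TPM with no filter and separate DMSO libraries for the level and the difference, against 0.77. Over 72 named genes and 992 values, 952 stayed on their side of the thresholds, 35 were lost (18 without the 10 µM sample), 4 were gained, and HDAC7, which was never called, changed sign without the 10 µM sample (from -0.06 to 0.014; -0.14 without the 1 µM sample). The cause of these changes was not tested. Alternatives with the TPM filter on DMSO alone or with no filter, and without the 10 µM Merck60 library, were chosen after seeing the data.

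Each dose had 1 sample, so doses could not be tested against each other, and dose differences enter the error of every gene. Rows on few reads, many of them small RNA genes, rest on counting error as well. Doses of 10 and 1 µM were on 1 flow cell, and cultures were not replicated at a dose.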
